A study of Mus musculus with 9 samples.

Results

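Guanylate-binding proteins (GBPs) and immunity-related GTPases (IRGs) are interferon-inducible GTPases of cell-autonomous defence. Their 9 members described here are Gbp2, Gbp3, Gbp5, Gbp7, Irgm1, Irgm2, Igtp, Ifi47 and Iigp1, taken by gene name from the 26146 gene rows of the expression table. All 9 had a row, and 7 of them passed the filter for testing. The table also holds 23 other rows of both families.

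The data are poly(A) RNA sequencing of the mouse macrophage line RAW264.7, in 3 groups of 3 libraries. The Normal libraries come from cells with no treatment named. The other groups received lipopolysaccharide (LPS), a bacterial outer membrane component sensed by Toll-like receptor 4, either alone or with a Traditional Chinese Medicine extract. No plant, dose or time is given in the labels used here, and replicates are not said to be separate cultures, so p-values measure the spread between these libraries, which may be technical. The labels conflict on the treated groups, which are therefore called ET and M after their table columns. Sample titles and column names make ET the LPS libraries and M the LPS+Extract libraries, whereas the library names in the same labels make M the LPS libraries and ET the LPS+Extract libraries. Expression values were not used to choose. The contrasts of ET and of M with Normal each compare LPS-treated with untreated cells under either reading, while the sign of M minus ET as an extract effect depends on it.

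GBPs are large GTPases that assemble on membranes of pathogens and of the vacuoles that hold them, and several carry a C-terminal prenyl anchor. IRGs fall into effectors, such as Iigp1 and Ifi47, that are loaded onto vacuoles, and the regulators Irgm1, Irgm2 and Igtp, which sit on the cell's own membranes and hold the effectors inactive there. In macrophages LPS induces type I interferon, which acts on promoters through the interferon-stimulated response element (ISRE). Interferon gamma acts mainly through the gamma-activated site (GAS).

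The promoter stretches that hold the ISRE core are shown because this is the element through which the families are known to respond. Promoters were available for 8 of the 9 members in the RefSeq set on GRCm38.p6, from 250 bases before to 50 bases after each start. The ISRE core was searched as GAAANNGAAA and its reverse complement TTTCNNTTTC. Each line below gives 60 bases on the gene's strand, 5′ to 3′, with every base of an ISRE core match in capitals.
Gbp2, chr3:142620579-142620638, plus strand: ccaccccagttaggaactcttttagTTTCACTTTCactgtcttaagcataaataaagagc
Gbp3, chr3:142559977-142560036, plus strand: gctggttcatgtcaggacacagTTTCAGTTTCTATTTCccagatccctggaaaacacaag
Gbp5, chr3:142496744-142496803, plus strand: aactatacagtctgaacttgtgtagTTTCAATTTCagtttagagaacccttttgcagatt
Gbp7, chr3:142530258-142530317, plus strand: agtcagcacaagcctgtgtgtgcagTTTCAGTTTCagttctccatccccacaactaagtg
Irgm1, chr11:48871413-48871472, minus strand: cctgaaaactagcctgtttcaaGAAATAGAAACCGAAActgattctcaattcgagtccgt
Irgm2, chr11:58214888-58214947, plus strand: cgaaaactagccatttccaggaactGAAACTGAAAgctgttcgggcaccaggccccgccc
Igtp, chr11:58199497-58199556, plus strand: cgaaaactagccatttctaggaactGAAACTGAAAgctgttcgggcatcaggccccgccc

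An ISRE core stood in a promoter of 7 of the 8 members with an entry, against 3.44% of all 32851 promoters of the same length. The match lay on the strand opposite to the gene in the 4 GBPs and on the gene's own strand in Irgm1, Irgm2 and Igtp. Its first base lay 59 bases before the start in Gbp2 and 165 before it in Gbp5, and the pairs of overlapping matches in Gbp3 and Irgm1 began 45 and 30 bases before it. The windows of Igtp and Irgm2 were the same at 58 of 60 bases. Between the other pairs of windows, aligned by position without gaps, 8 to 28 bases were the same. Distances are from RefSeq starts, and the windows of Gbp5, Irgm1 and Irgm2 lie wholly inside their counted gene rows. The GAS letters TTCNNNGAA, which read the same on both strands, occurred in 8.30% of all promoters. They occurred in those of Gbp5 and Gbp7, with 2 matches each, and of Irgm2 and Igtp, with 1 each, inside the printed window just upstream of the ISRE core. A kappa B sequence, GGGNNTTTCC or its reverse complement, occurred in 1.63% of promoters and among the members in that of Gbp5. No match overlapped one of another motif. Ifi47 and a second, alternative promoter of Gbp3 held none of the 3 motifs, and Iigp1 had no entry. A match describes letters, not binding, and no binding was measured.

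**Figure D1:**
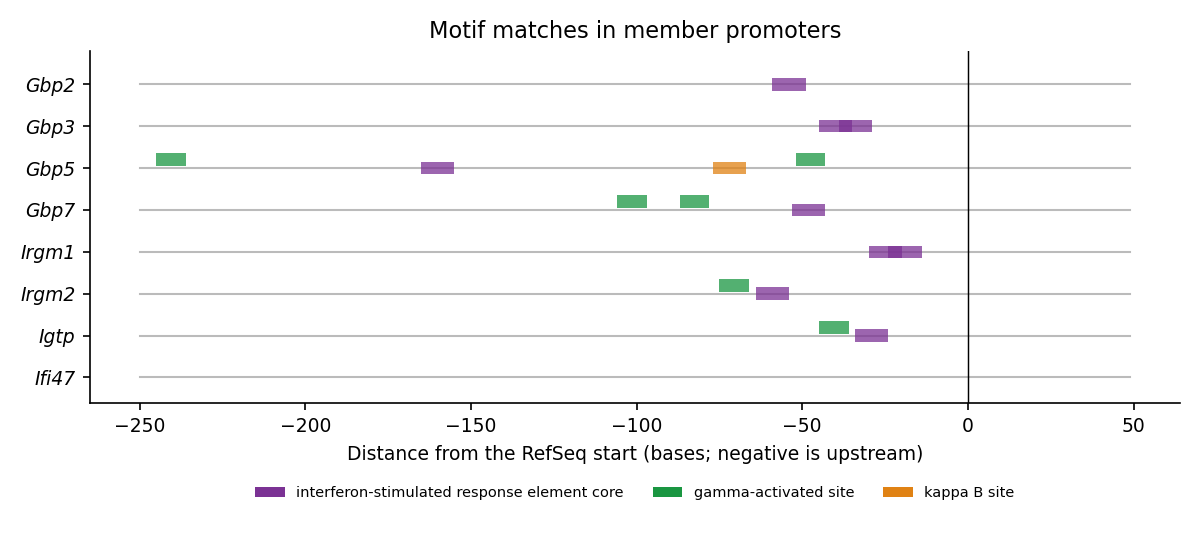
Positions of the motif matches in the first RefSeq promoter of 8 members, as distance in bases from the start (0, vertical line; negative is upstream). Boxes are matches on either strand; darker purple marks the overlap of the ISRE core matches of Gbp3 and of Irgm1, and Ifi47 has no box.

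The libraries held between 55039858 and 76242718 counts, so that 3 counts, taken as the floor, stood for 0.0378 to 0.0555 CPM (counts per 1e6 counts after TMM scaling). Floors cover counting error only. Low counts piled up at multiples of 4 (7994 values of 4, against 3806 of 3 and 2440 of 5), so 1 count may not be 1 independent fragment. No pair of replicates agreed within sampling noise, with 11.2 to 26.2 chi-square per gene, and ET replicate 3 stood farthest from its group. Of 11536 genes tested with edgeR's quasi-likelihood test, 35.0% were called higher and 35.2% lower in ET than in Normal. The shares were 35.5% and 34.5% for M with Normal, and 4.97% and 4.12% for M with ET (Benjamini-Hochberg adjusted p under 0.05). The median log2 change over all tested genes was -0.02, -0.01 and 0.00 in these contrasts. Macrophage markers were present (9 of 9 tested, summed to between 4855 and 6064 CPM in every library). Summed T and NK cell markers (2 of 8 in the table) stayed at or under 0.121 CPM and epithelial ones (2 of 5) at or under 0.068 CPM.

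The 4 GBP members lie in 1 cluster on chromosome 3 of GRCm38, on the plus strand, with Gbp2b between Gbp3 and Gbp2. All 4 went from at most 0.504 CPM in the Normal libraries to at least 2.87 CPM in the treated ones. Gbp3 (ENSMUSG00000028268, 142560026 to 142573209) was the most abundant of them. Its level was 0.426, 0.504 and 0.305 CPM in the Normal libraries, 36.3, 37.4 and 40.3 in those of ET, and 45.8, 42.5 and 44.3 in those of M. Every treated library lay far above every Normal one, and every M library above every ET one. The log2 change from Normal was 6.49 ± 0.12 in ET and 6.71 ± 0.12 in M (SE, edgeR adjusted p = 1.3e-13 and 9.41e-14), or 90.0-fold and 105-fold.

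Gbp7 (ENSMUSG00000040253, 142530342 to 142550149), linked to the assembly of the phagocyte oxidase on phagosomes, followed the same pattern at a lower level. The Normal libraries gave 0.363, 0.227 and 0.136 CPM, the ET libraries 15.5, 17.6 and 20.5, and the M libraries 28.8, 26.1 and 28.1. No library of any group overlapped with another group. The log2 change from Normal was 6.19 ± 0.21 in ET and 6.82 ± 0.21 in M (SE, edgeR adjusted p = 3.63e-11 and 1.36e-11). It shares 637 exonic bases, 11.3% of its own, with Gm43802 on the same strand, whose own mean stayed at or under 0.0291 CPM.

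Gbp2 (ENSMUSG00000028270, 142620602 to 142638008), a prenylated GBP that is recruited to Toxoplasma vacuoles, had 8, 0 and 0 counts in the Normal libraries. It reached 3.52, 4.58 and 3.99 CPM in ET and 5.22, 5.31 and 6.09 CPM in M. Both treated groups lay above Normal without overlap, and M above ET. The fitted log2 changes of 6.59 ± 0.53 and 7.04 ± 0.52 (SE, edgeR adjusted p = 1.83e-07 and 8.7e-08) rest on those few Normal counts. Across the alternative settings they ranged from 1.28 to 10.9 in ET and from 1.56 to 11.4 in M, always past the threshold. They were lowest with limma on log2(FPKM + 1) and highest without Normal replicate 1.

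Gbp5 (ENSMUSG00000105504, 142493978 to 142522344), known for promoting NLRP3 inflammasome assembly, had 0, 4 and 0 counts in Normal. It stood at 2.87, 3.01 and 3.10 CPM in ET and at 4.61, 6.23 and 5.31 CPM in M. The 3 groups did not overlap. It did not reach 1 FPKM, the authors' unit of fragments scaled by gene length and depth, in any library, so its test comes from a fit of all genes with at least 1 count. There the log2 change from Normal was 7.09 ± 0.48 in ET and 7.94 ± 0.48 in M (SE, edgeR adjusted p = 1.99e-07 and 6.25e-08). It was 10.45 and 11.30 without Normal replicate 2, the library with the 4 counts, and 0.49 and 0.79 with limma on log2(FPKM + 1), past the threshold in each.

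The IRG regulators were already expressed in Normal cells, and they rose by a smaller factor from a higher base. Irgm1 (ENSMUSG00000046879, chromosome 11, 48861968 to 48871683, minus strand), needed for resistance to mycobacteria and tied to autophagy, was the most abundant member in every group. The Normal libraries gave 19.4, 17.5 and 17.8 CPM, those of ET 149, 155 and 164, and those of M 167, 173 and 177, backed by 1050 to 10180 counts. The groups did not overlap, though the highest ET and the lowest M library were close. The log2 change from Normal was 3.10 ± 0.05 in ET and 3.24 ± 0.05 in M (SE, edgeR adjusted p = 7.07e-14 and 5.07e-14), or 8.56-fold and 9.45-fold.

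Igtp (ENSMUSG00000078853, chromosome 11, 58199556 to 58207591, plus strand), also called Irgm3, had 3.77, 2.81 and 3.83 CPM in the Normal libraries. It had 32.5, 34.3 and 35.7 CPM in the ET libraries and 42.3, 38.6 and 40.0 in the M libraries. Every library of M lay above every library of ET, and both above Normal. Its log2 change was 3.31 ± 0.11 in ET and 3.54 ± 0.11 in M (SE, edgeR adjusted p = 2.63e-11 and 1.35e-11), or 9.90-fold and 11.7-fold.

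Irgm2 (ENSMUSG00000069874, chromosome 11, 58199618 to 58222782, plus strand), known to restrain the caspase-11 response to LPS, stood at 3.11, 2.91 and 3.70 CPM in Normal. It reached 22.3, 25.1 and 24.7 CPM in ET and 28.9, 29.3 and 32.3 CPM in M, again with no overlap between groups. The log2 change was 2.90 ± 0.10 in ET and 3.22 ± 0.10 in M (SE, edgeR adjusted p = 6.5e-11 and 2.31e-11). The gene models of Igtp and Irgm2 share 162 exonic bases on the same strand, 8.01% of Igtp's and 4.39% of Irgm2's exonic length, and how reads there were assigned is not stated in the labels. With their counts summed as 1 feature, chosen after seeing the data, the log2 change from Normal was 3.12 in ET and 3.40 in M.

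Of the effectors, Ifi47 had the smallest log2 change of all members in the edgeR fits, and Iigp1 stayed low, at or under 0.646 CPM. Ifi47 (ENSMUSG00000078920, chromosome 11, 49076587 to 49096974, plus strand), also known as Irgd, had 3.63, 3.30 and 5.16 CPM in Normal. It had 7.53, 7.65 and 7.05 CPM in ET and 5.95, 5.68 and 8.22 CPM in M. The treated libraries lay above Normal by a narrow margin, and M and ET overlapped. The log2 change was 0.88 ± 0.19 in ET and 0.72 ± 0.19 in M (SE, edgeR adjusted p = 0.00111 and 0.00449), or 1.84-fold and 1.65-fold. It overlaps Olfr56 on the same strand by 111 exonic bases, 4.49% of its own, and Olfr56 averaged 0.177, 0.624 and 0.526 CPM in Normal, ET and M.

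Iigp1 (ENSMUSG00000054072, chromosome 18), the effector Irga6 that coats Toxoplasma vacuoles, was close to the detection limit. It had 4, 0 and 0 counts in Normal, 19, 29 and 9 in ET, and 38, 14 and 21 in M, or at most 0.646 CPM. All treated libraries exceeded all Normal ones, and M and ET overlapped. In the fit of all genes with at least 1 count the log2 change was 3.87 ± 1.07 in ET and 4.22 ± 1.07 in M (SE, edgeR adjusted p = 0.0133 and 0.00815). Without Normal replicate 1, the library with the 4 counts, it was 7.33 and 7.68. The ET call was lost with limma on log2(FPKM + 1) and log2(FPKM + 0.1), at adjusted p = 0.103 and 0.0599.

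**Figure D2:**
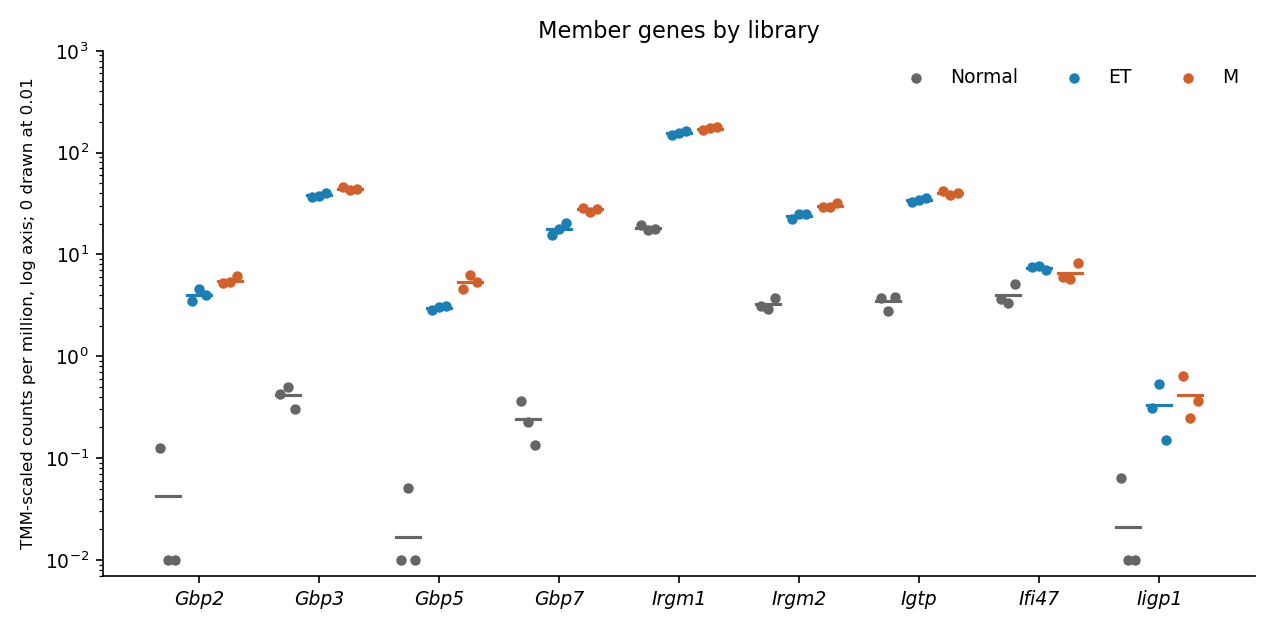
Level of each member in each library, in CPM on a log axis, with 0 drawn at 0.01; points are libraries and horizontal bars the means of 3. The GBPs and Iigp1 start low in Normal (0 to 0.504 CPM), Irgm1, Irgm2, Igtp and Ifi47 start higher, and every treated point lies above every Normal point of its gene.

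Each of the 7 tested members was called higher in ET and in M than in Normal, against the backgrounds of 35.0% and 35.5%. Both contrasts share the Normal libraries, and this count is a description. Gbp2, Gbp3, Gbp7 and Irgm2 passed the filter of 1 FPKM in 3 libraries only through treated libraries, while Irgm1, Igtp and Ifi47 passed it in all 9. In bulk RNA a change in the share of expressing cells and a change in RNA per cell cannot be told apart. Summed fibroblast markers moved in the same direction, with 0.363 to 0.848 CPM in the Normal libraries, 9.23 to 10.8 in those of ET and 12.9 to 18.5 in those of M. This was mainly Lum, which had 0 counts in Normal and 8.13 and 13.1 CPM in ET and M, with Col1a1 at or near 0. Endothelial markers, mainly Pecam1, summed to 4.99 to 6.19, 18.5 to 21.6 and 21.7 to 23.8 CPM, and B cell markers to 0.204 to 0.946, 1.66 to 3.68 and 2.01 to 2.34 CPM. The part of these genes in the members' rise was not tested.

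Compared per length, the order of the members changed between Normal and treated cells. In Normal, mean FPKM fell from Irgm1 (3.03 ± 0.151, SD, n = 3) to Igtp (1.66 ± 0.277), Ifi47 (1.57 ± 0.386), Irgm2 (0.844 ± 0.107) and Gbp3 (0.121 ± 0.0289). Igtp and Ifi47 overlapped, and Gbp7, Gbp2, Iigp1 and Gbp5 followed at or under 0.0395 FPKM with overlapping libraries. In ET, Irgm1 (24.6 ± 1.18 FPKM) and Igtp (15.5 ± 0.741) led again, but Gbp3 (10.7 ± 0.567) came next, above Irgm2 (5.97 ± 0.385). Gbp7 (2.91 ± 0.403) and Ifi47 (2.74 ± 0.124) overlapped, and Gbp2 (1.47 ± 0.198), Gbp5 (0.412 ± 0.0157) and Iigp1 (0.0506) were lower. The order in M was the same, from Irgm1 (27.0 ± 0.859 FPKM), Igtp (18.1 ± 0.776) and Gbp3 (12.3 ± 0.436) to Gbp5 (0.734 ± 0.112) and Iigp1 (0.0646). There Gbp7 (4.48 ± 0.220) was clear of Ifi47 (2.42 ± 0.519), which overlapped with Gbp2 (2.00 ± 0.180).

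Summed over the members, the level lay between 6.50 and 7.89 FPKM in Normal libraries, between 60.8 and 67.2 in those of ET and between 72.7 and 76.7 in those of M. Irgm1, Irgm2 and Igtp together made up 73.1% to 77.9% of it in Normal libraries, 71.5% to 71.7% in those of ET and 70.1% to 71.2% in those of M. Most of the members' summed FPKM was thus that of the regulators in every library. Gbp3 alone gave 67.9% to 70.8% of the FPKM of the 4 GBP members in ET and 62.3% to 64.0% in M. In the Normal libraries its share was 54.6% to 79.8%, of a sum of at most 0.229 FPKM.

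Between M and ET the differences were small beside the rise from Normal. Gbp7 was 1.55-fold higher in M (log2 0.63 ± 0.14, SE) and Irgm2 1.25-fold (log2 0.33 ± 0.09), with edgeR adjusted p = 0.0153 and 0.0458. These were 2 of the 7 tested members, against 4.97% of all tested genes, and 0 of 7 were called lower, against 4.12%. Neither call held in every fit that left out 1 library. Over those fits the log2 difference was 0.53 to 0.73 for Gbp7 and 0.27 to 0.36 for Irgm2. Gbp7 missed the threshold without ET replicate 1 (adjusted p = 0.0591), ET replicate 2 (0.0614), M replicate 1 (0.0591) or M replicate 3 (0.0588). Irgm2 missed it without any 1 of the 6 libraries, at adjusted p from 0.0506 without ET replicate 3 to 0.173 without ET replicate 1. Summed with Igtp, the log2 difference was 0.27 ± 0.08 (SE, adjusted p = 0.0509).

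The other tested members did not pass. The log2 difference of M from ET was 0.22 ± 0.08 for Gbp3 (SE, edgeR adjusted p = 0.107), 0.24 ± 0.09 for Igtp (0.135), 0.14 ± 0.05 for Irgm1 (0.0797), 0.46 ± 0.32 for Gbp2 (0.405) and -0.16 ± 0.19 for Ifi47 (0.633). In the fit of all genes with at least 1 count, Gbp5 gave 0.85 ± 0.28 (0.174) and Iigp1 0.34 ± 0.86 (0.939). DESeq2 called Gbp3 (adjusted p = 0.0416) and Gbp5 (0.00631), and Irgm1 was called without ET replicate 3 (0.027). Igtp (0.0499) and Gbp5 (0.0475) passed in a fit of the 6 treated libraries alone. Gbp5 also passed with limma on log2(FPKM + 1) (0.0234) and with counts divided by 4 (0.000832).

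The direction was shared more widely than the calls. Every M library lay above every ET library in 6 of the 7 tested members (Gbp2, Gbp3, Gbp7, Irgm1, Irgm2 and Igtp), and also in the untested Gbp5. Among all tested genes this held for 14.3%. The members' median log2 difference was 0.24, beside 0.00 over all tested genes. Ifi47 was the exception among the tested, with 2 M libraries below and 1 above all ET libraries.

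**Figure D3:**
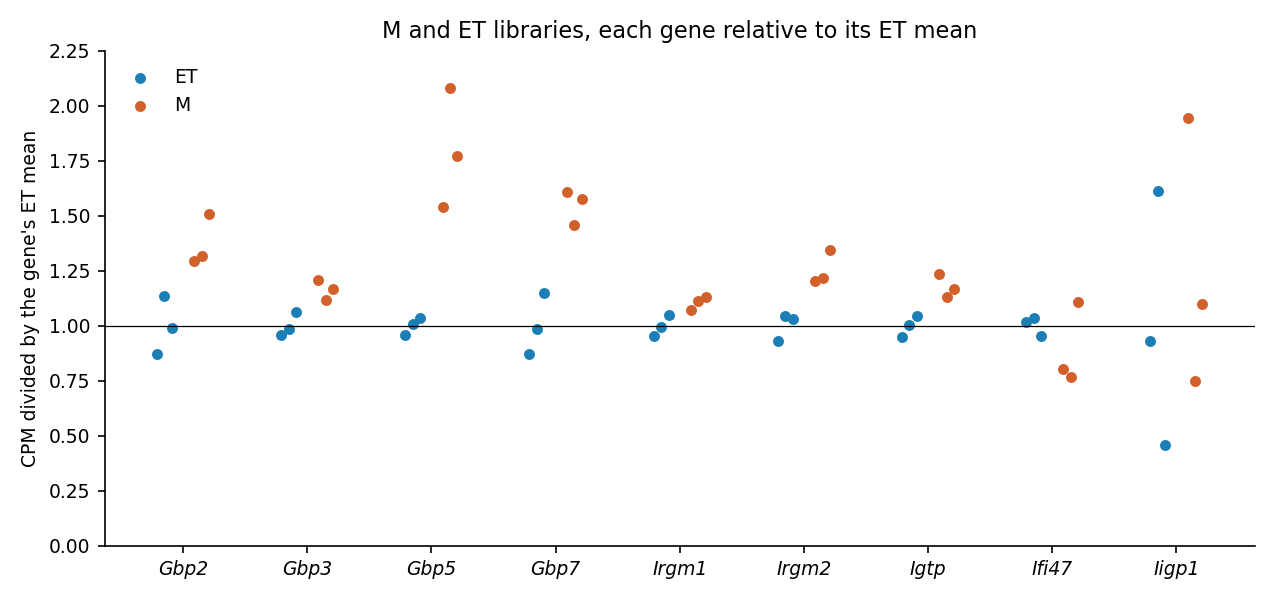
CPM of each ET and M library divided by the gene's ET mean (line at 1), for the 9 members. All M points lie above all ET points in 7 genes, by the widest margin for Gbp5 and Gbp7, while Ifi47 and Iigp1 overlap.

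Of the other GBPs, 7 rows were in the table and 2 passed the filter, Gbp2b and Gbp9, both only through treated libraries. Gbp2b, the gene formerly called Gbp1, rose from 0, 4 and 0 counts in the Normal libraries to a mean of 6.41 ± 1.30 CPM for ET and 9.25 ± 0.127 for M (SD, n = 3; log2 8.20 and 8.73, edgeR adjusted p = 1.88e-09 and 8.89e-10). Gbp9, on chromosome 5, rose from 0.0394 ± 0.0352 CPM to 9.24 ± 0.860 and 12.7 ± 1.42 CPM (log2 7.79 and 8.25, adjusted p = 2.59e-10 and 1.35e-10). Neither was called between M and ET (log2 0.53 and 0.45, adjusted p = 0.152 and 0.139). Gbp4, not tested, had 0 counts in Normal and 2.30 and 4.06 CPM in ET and M, at least 50.7-fold and 89.5-fold higher against the floor of 3 counts per library. Gbp6 had 0, 10 and 0 counts in Normal, 32, 51 and 27 in ET and 111, 62 and 63 in M. Gbp8 and Gbp11 had counts in 1 library each, at most 9, and Gbp10 at most 32 in any library. These genes are close paralogs, and the labels do not say how reads that fit several of them were shared out.

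Of the other IRGs and related very large GTPases, 16 rows were in the table and 6 passed the filter. In ET 4 were called higher and 2 lower than Normal, in M 3 and 2, and between M and ET 3 were called higher and 0 lower. Shares over all tested genes were 35.0% higher and 35.2% lower in ET, and 35.5% and 34.5% in M. Between M and ET they were 4.97% and 4.12%. Gvin1 and Gm4070 passed the filter only through treated libraries, and 9930111J21Rik1 only through Normal ones. The 3 higher in M than in ET were very large inducible GTPases of chromosome 7. Gvin1 averaged 6.62 ± 1.38 CPM over the Normal, 29.3 ± 4.50 over the ET and 46.3 ± 3.50 over the M libraries (SD, n = 3), a log2 difference of M from ET of 0.66 (edgeR adjusted p = 0.00922). Gm4070 (7.74 ± 1.21, 34.7 ± 4.85 and 55.7 ± 3.85 CPM) and Gm8995 (26.7 ± 1.38, 69.1 ± 11.8 and 101 ± 6.60 CPM) gave 0.68 and 0.54 (adjusted p = 0.00277 and 0.00518). Of their relatives that missed the filter, Gm8979 (0.774, 2.44 and 3.89 CPM in Normal, ET and M) and Gm8989 (0.517, 1.62 and 2.24 CPM) were also higher in every treated than in every Normal library. Gm1966 (0.396, 0.806 and 0.916 CPM) overlapped with Normal in ET and lay above it in M. These genes are close paralogs, so their values may share reads.

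The 3 other tested genes did not follow the members. 9930111J21Rik1 and 9930111J21Rik2, which lie near Irgm1, fell from 11.3 ± 0.345 to 4.23 ± 0.702 and 5.11 ± 0.234 CPM and from 24.4 ± 1.16 to 8.35 ± 0.455 and 10.02 ± 0.242 CPM (log2 -1.41 and -1.14, then -1.55 and -1.28, edgeR adjusted p at most 6.7e-06). Irgq, a divergent IRG, was at 16.9, 20.5 and 18.2 CPM (log2 0.28 in ET, adjusted p = 0.0324, and 0.10 in M, 0.402). Among untested IRG rows, Gm5431 was lower in every ET than in every Normal library (means of 0.763 and 1.31 CPM) and overlapped with Normal in M. Gm12250 and Gm12185 overlapped with Normal in both treated groups. The effector genes Tgtp1 and Tgtp2 had at most 26 counts in any library. The promoter of each holds an ISRE core and a GAS match, as those of Irgm2 and Igtp do. Among the 10 other family genes with a RefSeq promoter, 7 held an ISRE core, one of them 9930111J21Rik1, in which it lies 26 bases after the start.

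**Figure D4:**
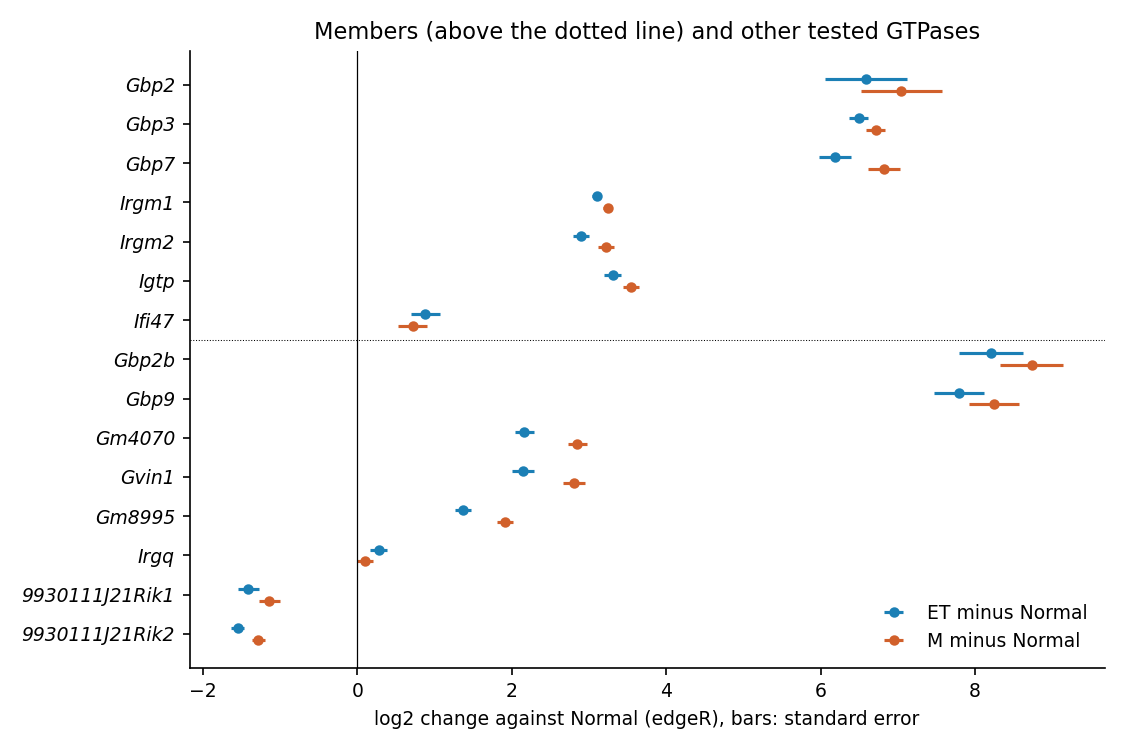
log2 change from Normal in ET and in M (edgeR), with standard errors, for the 7 tested members (above the dotted line) and the 8 other tested genes of both families. The GBPs lie between 6.19 and 8.73, Irgm1, Irgm2 and Igtp between 2.90 and 3.54, and 9930111J21Rik1 and 9930111J21Rik2 below 0.

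The interferon pathway upstream of the families was described from lists of its genes. Of 19 interferon ligands and receptors, 8 were in the table and 5 tested. Of these 5, 3 were called higher and 2 lower than Normal in both treated groups (median log2 0.17 in ET and 0.22 in M). Over all tested genes, 35.0% were called higher and 35.2% lower in ET, and 35.5% and 34.5% in M. Between M and ET the shares were 4.97% and 4.12%. Ifnb1, the interferon beta gene, had 0 counts in Normal, 4, 6 and 4 in ET and 0, 8 and 24 in M. In the fit of all genes with at least 1 count its edgeR adjusted p was 0.0558 for ET with Normal and 0.0255 for M with Normal, and 1 M library was at 0 as the Normal libraries were. Ifng, also on the list, was not analysed here. Ifngr1, the ligand-binding chain of the interferon gamma receptor, fell from a Normal mean of 45.4 ± 1.23 CPM to an ET mean of 22.6 ± 1.99 and an M mean of 22.8 ± 2.40 (SD, n = 3; log2 -1.01 and -0.996, edgeR adjusted p = 3.27e-07 and 3.65e-07). Its partner chain Ifngr2 was the 1 list gene called between M and ET (log2 0.13, adjusted p = 0.0484).

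Among JAK, STAT and interferon regulatory factor genes and their regulators, 22 of 23 were tested. In ET 14 were called higher and 8 lower than Normal, and in M 14 and 7 (median log2 0.66 and 0.89). Between M and ET 6 were called higher and 0 lower, with a median of 0.09. Shares over all tested genes were 35.0% higher and 35.2% lower in ET, and 35.5% and 34.5% in M. Between M and ET they were 4.97% and 4.12%. The counts lower than Normal were near these shares. Irf7, which amplifies type I interferon, gave 389, 405 and 382 CPM in the ET libraries and 499, 490 and 474 in the M libraries, up from at most 5.09 in Normal, a log2 difference of 0.32 between M and ET (adjusted p = 0.00172). Stat3 and Stat2 were higher in M by 0.23 and 0.39 (adjusted p = 0.00565 and 0.0118). Irf1, known to drive GBP genes after interferon gamma, fell from a Normal mean of 30.2 ± 2.33 CPM to an ET mean of 15.0 ± 1.06 and an M mean of 16.3 ± 0.206 (SD, n = 3; log2 -1.01 and -0.88, adjusted p = 1.67e-07 and 5.66e-07). It was lower in all treated libraries, in which the GBPs were higher, and a link between the 2 was not tested.

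The pathways that GBPs and IRGs act in changed less uniformly. Of 9 genes of the non-canonical inflammasome and pyroptosis, 8 were tested, with 7 called higher in ET, 6 in M and 0 lower (median log2 1.03 and 0.9997). The untested gene, Pycard, had 4, 30 and 4 counts in Normal, 0 in every ET library and 0, 0 and 8 in M. In the fit of all genes with at least 1 count it was lower in ET than in Normal (log2 -6.42, edgeR adjusted p = 0.0495). The M contrast with Normal was not called there (0.429). Shares over all tested genes were 35.0% higher and 35.2% lower in ET, and 35.5% and 34.5% in M. Between M and ET they were 4.97% and 4.12%. Casp4, the mouse caspase-11 that binds cytosolic LPS, rose from a Normal mean of 7.01 ± 1.62 CPM to means of 30.7 ± 3.37 for ET and 35.4 ± 2.03 for M (SD, n = 3; log2 2.13 and 2.34, edgeR adjusted p = 2.67e-08 and 1.1e-08). It is named here after its values were seen. Between M and ET, Il1b was called higher (log2 0.84, adjusted p = 1.94e-06) and Ninj1, which ruptures the plasma membrane in lytic death, lower (log2 -0.27, adjusted p = 0.00988), with a list median of 0.06.

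The autophagy conjugation machinery directs both GTPase families to vacuoles. All 17 genes of its list, which also holds the cargo receptor gene Sqstm1, were tested. Shares over all tested genes were 35.0% higher and 35.2% lower in ET, and 35.5% and 34.5% in M. Between M and ET they were 4.97% and 4.12%. In ET 11 were called higher and 1 lower than Normal, in M 11 and 2, and between M and ET 0 higher and 2 lower (medians 0.51, 0.36 and -0.08). Both of those were higher in ET, opposite in sign to Gbp7 and Irgm2. Sqstm1, the cargo receptor p62, averaged 235 ± 5.92 CPM over the Normal, 849 ± 62.2 over the ET and 593 ± 7.59 over the M libraries (SD, n = 3; log2 difference of M from ET -0.52, edgeR adjusted p = 3.34e-05). Atg7, the activating enzyme of the conjugation systems, differed by -0.26 (adjusted p = 0.00855). Of 9 prenylation and CaaX processing genes, all tested, 2 were called higher and 1 lower in ET, 5 and 0 in M, and 0 either way between M and ET (medians 0.12, 0.14 and 0.02). These counts stand beside the same shares over all tested genes.

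Over the 9 libraries the tested members ran in parallel. The Pearson correlation of each member's log2 CPM with the mean of the others was 0.989 to 0.997, except for Ifi47 at 0.850. These libraries fall into a low and a high group, which sets most of such a value, and 521 tested genes correlated with the members' mean profile above 0.99. The 5 outside the families with the highest values were Pomgnt1 (0.999), Fndc3b (0.998), Dmpk (0.998), Usp18 (0.998) and Zbp1 (0.998). Of these Usp18, which damps type I interferon signalling, and Zbp1, a sensor of Z-form nucleic acid, are known interferon-stimulated genes. Zbp1 went from a Normal mean of 0.294 ± 0.209 CPM to means of 39.6 ± 2.48 for ET and 50.2 ± 0.252 for M, and Usp18 from 3.08 ± 0.693 to 118 ± 5.70 and 138 ± 3.55 CPM (SD, n = 3). Pomgnt1, a glycosyltransferase, changed by only 0.74 and 0.78 on the log2 scale, so likeness here is of shape and not of size.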

How the data were processed

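RAW264.7 RNA was sequenced in 9 libraries. Per the submitters' processing notes, cutadapt 1.9, HISAT2 2.2.1, StringTie 2.1.6, DESeq2 and edgeR were used. The deposited counts are whole numbers per gene and library, and the deposited FPKM values are, per the file headers, the authors' own. The counting tool, its strand setting and the genome build are not given in the sources used here, and start and end equalled GENCODE M21 on GRCm38 for 23547 of 26146 genes (90.1%) and all 9 members.

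Counts were fitted with edgeR 4.0.16 in R 4.3.3 (quasi-likelihood test, TMM factors, 1 fit of 3 groups) for the 11536 genes that reached 1 FPKM in 3 or more of the 9 libraries, with Benjamini-Hochberg adjustment over all of them at 0.05. Gbp5 and Iigp1 missed this filter and were read from a fit of all genes with at least 1 count. Standard errors are the log2 change over the square root of its F. The code was tested on simulated data. Levels are TMM-scaled counts per 1e6 counts (CPM), with totals of 55039858 to 76242718 counts. Correlations used log2(CPM + 0.5).

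The members, gene lists and tests were chosen with earlier results of these data known. Named genes were all members, the tested family genes, Irf1, Ifnb1, Ifng and Ifngr1, up to 4 called genes per list with the smallest p between M and ET, and the 5 most correlated genes. Of these, Ifng was not analysed here, and 1 more gene of the rule is not reported here. Other genes were named after their values were seen. Alternatives were DESeq2 1.42.0, limma 3.58.1 on log2 FPKM with pseudocounts of 1 and 0.1, other scalings, filters and thresholds, 6-library fits, a replicate block and leaving out each library. Chosen after seeing the data were counts divided by 4 and the sum of Igtp and Irgm2.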

Additional observations from a re-analysis of the deposited data

How the results depend on the processing

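All 9 members stayed higher in ET and in M than in Normal under the alternatives run. Of their values for ET with Normal 148 of 151 kept their call (the 3 others were Iigp1), and for M with Normal 151 of 151. Between M and ET 127 of 150 kept theirs, 16 lost a call, 7 gained one and 0 reversed. The count of members higher in M than in ET, 2 of the 7 tested, became 1 with limma on log2(FPKM + 0.1), 1 with total counts without TMM factors, 1 with no filter beyond 1 count, 1 with a filter of at least 10 counts in 3 libraries, and 0 at an adjusted p of 0.01. Leaving out 1 library gave 0 to 2. DESeq2 and the fit of 6 libraries gave 3. With the replicate block it was 2, and the block changed no count. Same-numbered libraries of M and ET correlated by 0.0370 to 0.0508 in their deviations from the group means. Those with different numbers correlated by -0.0435 to -0.00253. For ET with Normal, same-numbered libraries gave -0.0680 to -0.0103 and others -0.0432 to 0.106. For M with Normal the values were -0.0442 to 0.0373 and -0.0950 to 0.105. With 3 libraries per group, such small values cannot settle whether the numbers pair the libraries. Members called lower in M than in ET were 0 in each of the 17 settings, with edgeR, DESeq2 and limma alike; Ifi47 had a negative log2 difference in each, -0.35 to -0.06, at adjusted p of 0.318 to 0.888. Depth limits Iigp1, Gbp5 and Gbp2, whose Normal libraries held 0 to 8 counts.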
